A study of Homo sapiens with 8 samples.

Results

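Expression of 36 genes of the unfolded protein response and of protein folding in the endoplasmic reticulum (ER) was followed in SW480 and SW620 cells grown with or without caffeine. The genes were chosen by function, by matching gene symbols to the Ensembl identifiers, from the 62649 genes counted in each library. Earlier results of these data were known when the choice was made. They comprised 12 chaperones and co-factors, 7 enzymes of disulfide bond formation, 7 genes of ER-associated degradation, 6 stress sensors and transcription factors, and 4 genes of the protein translocation channel and of COPII vesicles. All 36 passed the filter on low counts, as did 17671 of the 35897 genes that had any count.

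Proteins bound for the cell surface or for secretion are threaded into the ER through the SEC61 channel, are folded there by chaperones and disulfide isomerases, and leave in COPII-coated vesicles. When unfolded proteins accumulate, the sensors IRE1 (gene ERN1), PERK (EIF2AK3) and ATF6 start the unfolded protein response: IRE1 splices the XBP1 mRNA, ATF6 is cut to release a transcription factor, and PERK phosphorylates eIF2α, which lowers translation while favouring that of ATF4. XBP1 and ATF6 activate chaperone and degradation genes through short DNA motifs known as ER stress elements, and proteins that fail to fold are passed to the cytosol for breakdown by the proteasome.

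SW480 and SW620 are established colorectal adenocarcinoma lines, the former grown from a primary tumour and the latter from a metastasis, and both carried a fluorescent B8-mCherry fusion of an immunoproteasome subunit in every group. Poly-A RNA was sequenced in 8 libraries, 2 each from untreated SW480, caffeine-treated SW480, untreated SW620 and caffeine-treated SW620. The labels describe caffeine on SW620 cultures at 30, 60, 100, 250 and 500 µM for 72 h and at 125 µM for 28 days, but do not give the dose or time of the sequenced libraries of either line. They state at least 2 biological replicates per group, with no record of whether these were grown on separate days.

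Between 15760259 and 23269315 reads per library were assigned to genes, so that 3 counts, the upper limit allowed by a count of 0, equalled 0.129 to 0.190 CPM (counts scaled by library size). Mitochondrial genes took 1.63% of the reads in SW480 caffeine replicate 2 and 4.38% to 6.16% in the other libraries. The 10 colon epithelium markers (EPCAM, keratins, CDX genes and others) summed to 4623 to 6014 CPM in the SW480 controls, 6562 to 6900 CPM in SW480 with caffeine, 10667 to 10735 CPM in the SW620 controls and 12917 to 14327 CPM in SW620 with caffeine. Markers of fibroblasts (8 genes) summed to at most 48.6 CPM, of leukocytes (8 genes) to at most 4.2 CPM and of endothelium (6 genes) to at most 16.1 CPM, with 1 to 4 genes of each of these lists at 0 in every group. The fibroblast and endothelial sums were higher in SW620 (37.8 to 48.6 and 9.72 to 16.1 CPM) than in SW480 (5.92 to 7.66 and 1.42 to 2.33 CPM).

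ER stress elements stood in the promoters of many of the genes, and their sequences are given first because they are the DNA signals through which XBP1 and ATF6 are known to act. RefSeq promoter windows on GRCh38.p14, from 250 bases before to 50 bases after the gene start, were found for 32 of the 36 genes, the others being PDIA3, DERL1, SEC24D and DERL3. Both strands were searched for ERSE (letters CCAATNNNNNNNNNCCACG) and ERSE-II (ATTGGNCCACG). At least 1 of these motifs was present in 10 of the 32 windows (31.2%), against 25 of the 12073 windows of all tested genes (0.207%) and 37 of all 27305 windows (0.136%). The 25 windows include the 10. The genes were chosen for the response in which these motifs are known to act, so the shares are a description and not a test. The matches lie upstream of the start and are printed 5′ to 3′ on the gene's strand with 6 flanking bases in lower case and the motif, or its reverse complement, in capitals:
HSPA5, ERSE, bases -66 to -48: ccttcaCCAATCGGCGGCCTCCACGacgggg
XBP1, ERSE, bases -52 to -34: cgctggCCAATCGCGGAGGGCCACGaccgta
CANX, ERSE, bases -151 to -133: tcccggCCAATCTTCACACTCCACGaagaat
HSP90B1, ERSE, bases -194 to -176: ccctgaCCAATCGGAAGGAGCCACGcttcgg
HSP90B1, reversed ERSE, bases -89 to -71: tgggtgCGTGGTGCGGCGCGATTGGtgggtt
CALR, reversed ERSE, bases -225 to -207: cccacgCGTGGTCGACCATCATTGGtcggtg
CRELD2, reversed ERSE, bases -80 to -62: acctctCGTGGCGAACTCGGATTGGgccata
ERO1B, reversed ERSE, bases -243 to -225: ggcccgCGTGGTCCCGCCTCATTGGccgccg
HERPUD1, ERSE-II, bases -117 to -107: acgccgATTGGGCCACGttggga
HYOU1, reversed ERSE-II, bases -185 to -175: ccgtgaCGTGGTCCAATcccagg
HYOU1, reversed ERSE-II, bases -79 to -69: ctgggaCGTGGTCCAATgagtac
SDF2L1, reversed ERSE-II, bases -188 to -178: cggaagCGTGGACCAATcaaaac

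ERSE was found in 7 genes and ERSE-II in 3, and HSP90B1 and HYOU1 each held 2 copies of their motif. The core of the XBP1 and ATF6 binding sequence (TGACGTGG) was found in 1 gene, HYOU1, where it overlaps the distal ERSE-II, against 1% of the windows of tested genes. The ATF4 element (TGATGNAAT) was found in 0 of the 32 windows and in 0.48% of the windows of tested genes. The 250 bases upstream of HSPA5, the gene of the master chaperone BiP, and of HYOU1, which has the paired ERSE-II motifs, are shown whole with the ERSE or ERSE-II matches in capitals. Both genes lie on the minus strand, HSPA5 with its window at chr9:125241344-125241593 and HYOU1 at chr11:119057206-119057455:
HSPA5 upstream: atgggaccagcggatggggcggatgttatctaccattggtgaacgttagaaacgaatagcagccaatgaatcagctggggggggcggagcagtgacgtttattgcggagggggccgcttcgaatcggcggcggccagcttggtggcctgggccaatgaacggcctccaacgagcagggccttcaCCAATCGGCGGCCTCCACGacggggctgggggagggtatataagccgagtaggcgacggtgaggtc
HYOU1 upstream: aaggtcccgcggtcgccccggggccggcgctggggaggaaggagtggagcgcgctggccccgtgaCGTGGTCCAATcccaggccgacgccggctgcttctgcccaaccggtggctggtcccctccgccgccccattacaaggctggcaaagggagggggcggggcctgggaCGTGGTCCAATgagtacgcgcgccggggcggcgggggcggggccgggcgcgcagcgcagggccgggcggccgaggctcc

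**Figure D1:**
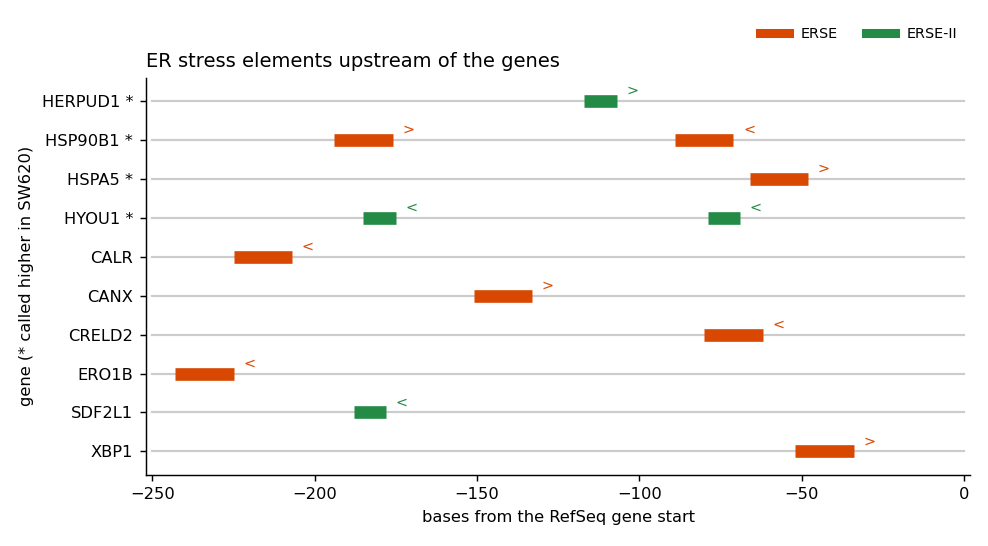
Position of ERSE (orange) and ERSE-II (green) matches in the 250 bases before the gene start of the 10 genes with a match, in bases from the start, with arrowheads for the strand of the match. The asterisks mark the 4 genes called higher with caffeine in SW620, which stand beside 6 genes with an element that were not called.

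The abundance of the genes spanned several orders of magnitude. On the TPM scale (counts per exon length, scaled to the same sum in each library, mean ± SD of 2 libraries), HSPA5 had the highest mean of the 36 in each of the 4 groups. It stood at 640.1 ± 35.1 TPM in the SW480 controls and 469.8 ± 2.12 TPM in the SW620 controls. CANX and HSP90B1, a lectin chaperone of the ER membrane and the ER form of HSP90, followed at 595 ± 124 and 528 ± 34.7 TPM in the SW480 controls. The SD of CANX there took in the means of both HSPA5 and HSP90B1. The least abundant were TXNDC5 at 1.72 ± 0.488 TPM and DERL3 at 0.76 ± 0.0895 TPM in the SW480 controls. Reads in exon bases shared with another gene may be left unassigned: TXNDC5 shares 2658 (60.6% of its exon bases) with the readthrough gene BLOC1S5-TXNDC5 on the same strand, and DERL3 shares 2923 (77%) with SMARCB1 on the other strand. In all, the 36 genes took 0.633% to 0.656% of assigned reads in the SW480 controls, 0.665% to 0.706% in SW480 with caffeine, 0.561% to 0.563% in the SW620 controls and 0.717% to 0.735% in SW620 with caffeine.

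**Figure D2:**
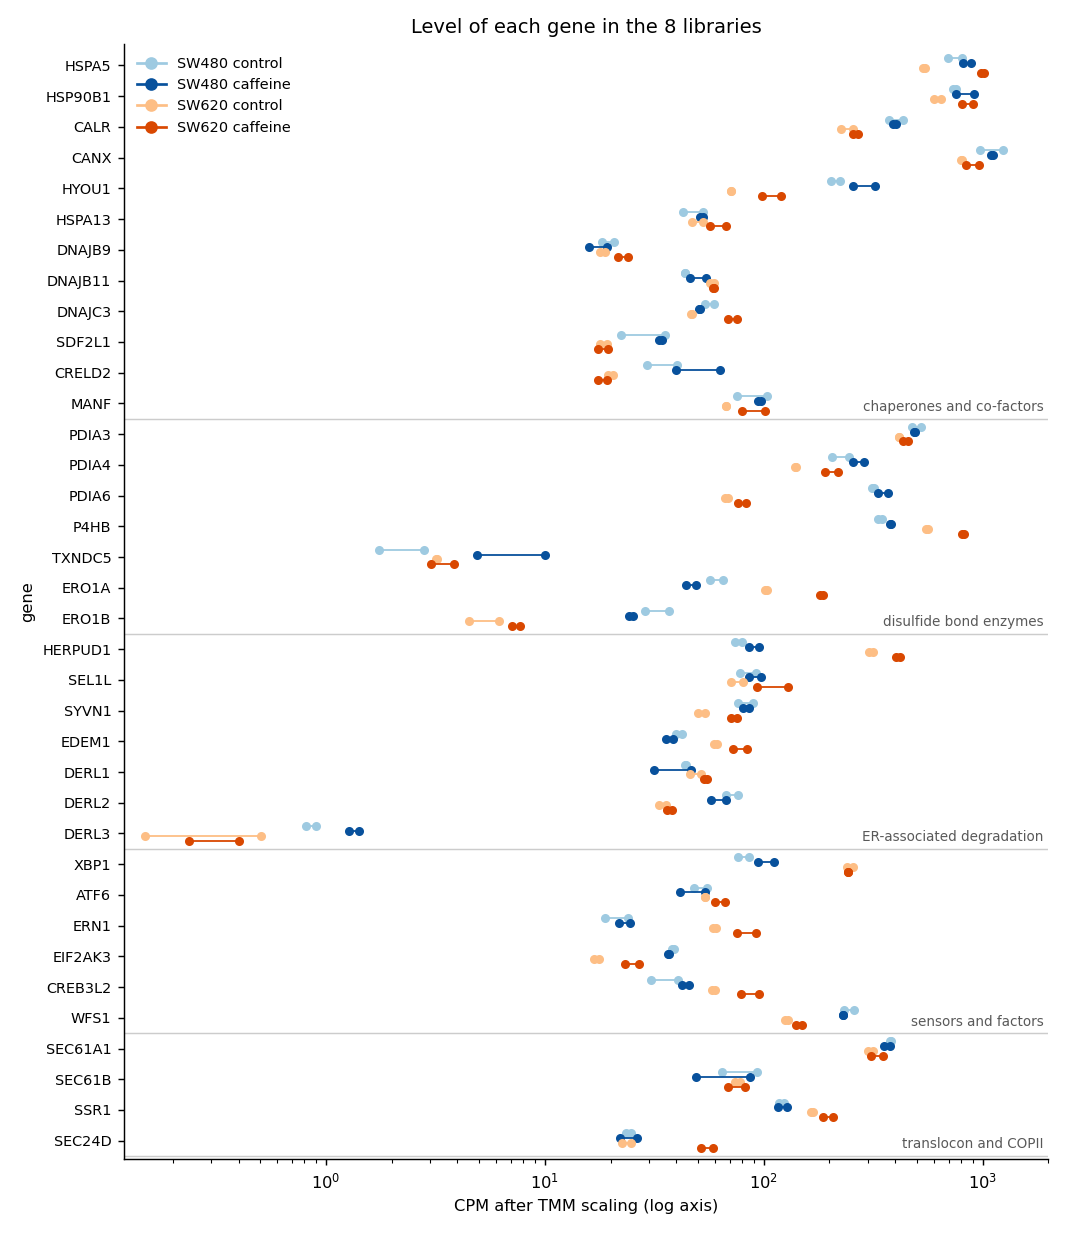
Level of each of the 36 genes in the 8 libraries, in CPM after TMM scaling on a log axis, with the 2 libraries of a group joined by a line and the genes ordered by role. The SW620 caffeine libraries (dark orange) lie to the right of both SW620 controls (light orange) for 27 genes, and the levels run from under 1 CPM for DERL3 to about the level of HSPA5 and CANX.

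In SW620, caffeine was accompanied by higher levels of the folding genes. By edgeR's quasi-likelihood test with Benjamini-Hochberg adjustment over all 17671 genes (called at an adjusted p under 0.05), 14 of the 36 rose and 0 fell, whereas 8.10% of all tested genes were called higher and 6.25% lower. The median log2 fold change was 0.31 over the 36 genes and -0.01 over all tested genes, and 31 of the 36 had a positive value. In 27 of the 36 both caffeine libraries lay above both controls, which was so of 29.7% of all tested genes, and in 1 (CRELD2) both lay below, against 32.4% of all. Since the 36 were chosen with earlier results of these data known, these shares describe the set and do not test it. In RNA from a whole culture, more cells of a type and more RNA per cell cannot be told apart. Some markers of other cells moved with caffeine in SW620 as well. The 6 markers of professional secretory cells, 1 to 3 of them at 0 in each group, summed to 9.57 to 10.3 CPM in the SW620 controls and 16.5 to 18.6 CPM with caffeine, but the 2 that could be tested went opposite ways. BHLHA15, a transcription factor of secretory cells, rose from 6.78 and 6.11 CPM to 14.9 and 17.2 CPM, a log2 fold change of 1.31. PRSS1, a trypsinogen, fell from 65 and 65 counts to 16 and 18 (-1.81). The endothelial sum went from 9.72 to 9.82 CPM to 15.5 to 16.1 CPM, with VWF and PECAM1 called higher. The fibroblast sum went from 37.8 to 40.1 CPM to 45.9 to 48.6 CPM, with COL1A1 called higher. The secretory sum was already 17.6 to 18.8 CPM in the SW480 controls. Whether cells of these types were present in the cultures was not tested, nor was any part of theirs in the result. Leaving out SW620 control replicate 1 or 2 left 3 called genes and leaving out SW620 caffeine replicate 2 left 5. SEC24D, HSPA5 and ERO1A were called without any 1 of the 8 libraries. DESeq2 and limma-voom each called 15 higher and 0 lower, and at an unadjusted p under 0.05 19 were higher and 0 lower, against 14.3% and 13.6% of all tested genes.

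In SW480 few of the genes were called. By the same test TXNDC5 rose and 0 of the 36 fell, against 1.67% of all tested genes called higher and 1.93% called lower, and DESeq2 and limma-voom also called 1 higher and 0 lower. At an unadjusted p under 0.05, 5 were higher and 2 lower, against 9.91% and 9.48% of all tested genes. The median log2 fold change was 0.06 over the 36 genes and 0 over all tested genes, with 20 positive values. Both caffeine libraries lay above both controls in 12 genes and below in 8, each of which was so of 21.5% of all tested genes. Leaving out SW480 control replicate 1 or caffeine replicate 2 left 0 called, while 3 were called higher without control replicate 2 (TXNDC5, CRELD2 and SDF2L1), without caffeine replicate 1 or without the filter on low counts (TXNDC5, CRELD2 and HYOU1 in both), and without control replicate 2 also 2 lower (ERO1A and ERO1B).

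**Figure D3:**
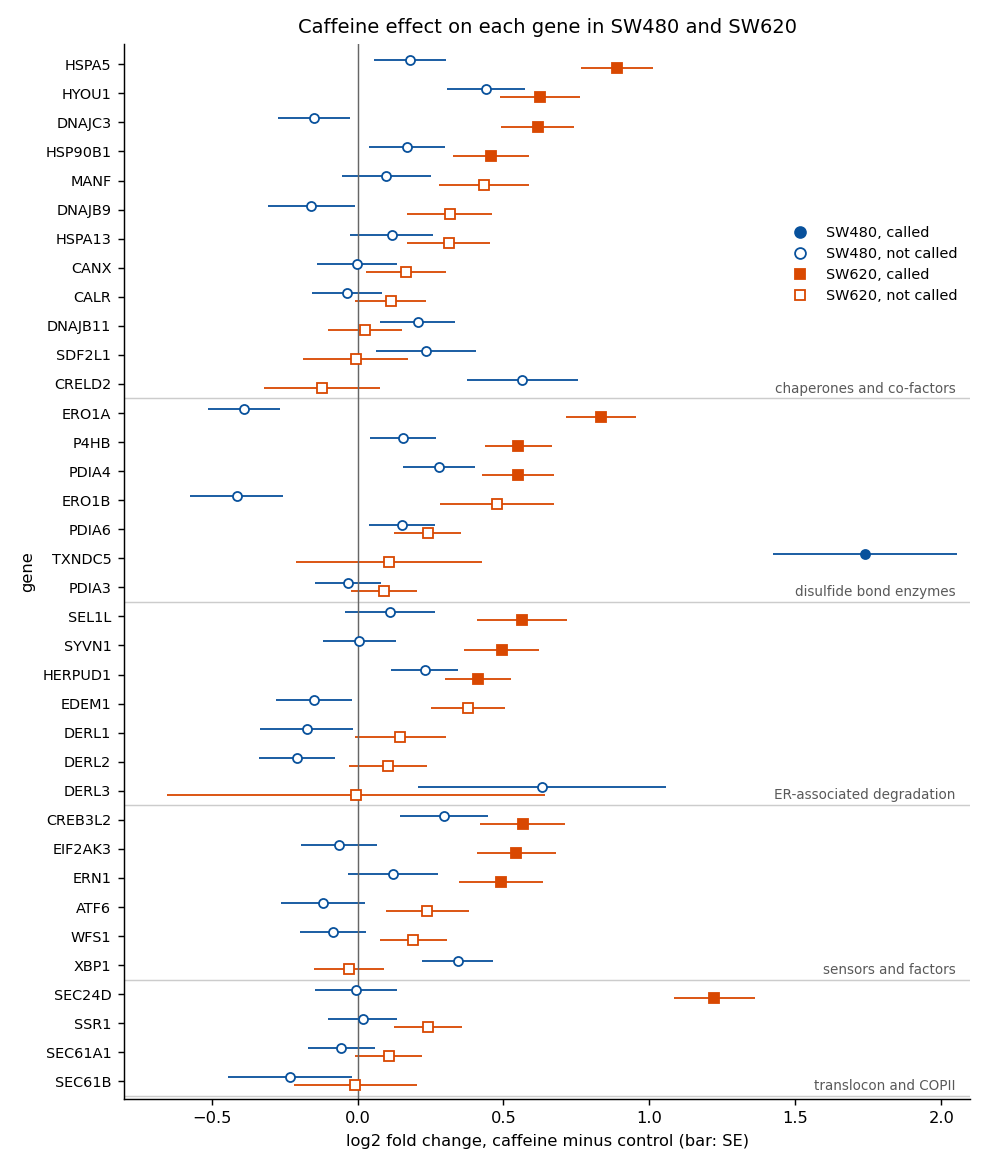
Log2 fold change of caffeine over control for each of the 36 genes in SW480 (blue circles) and SW620 (orange squares), with bars of 1 SE and filled symbols for an adjusted p under 0.05. Filled squares mark 14 genes in SW620 and a single filled circle marks TXNDC5 in SW480.

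Among the chaperones, 4 of 12 rose in SW620 (median log2 fold change 0.31) and 0 of 12 in SW480 (median 0.14), where 2 were higher and 0 lower at an unadjusted p under 0.05. Of all tested genes 8.10% were called higher in SW620 and 1.67% in SW480, so 0 of 12 is near the SW480 share. At the unadjusted p 9.91% were higher and 9.48% lower in SW480. The same shares apply to the groups of genes that follow. HSPA5 encodes BiP, the HSP70 of the ER, which also holds the stress sensors inactive. Its level was 545 and 535 CPM in the SW620 controls and 1014 and 987 CPM with caffeine, a log2 fold change of 0.89 ± 0.12 (SE, adjusted p = 0.000153) or 1.85-fold. In SW480 it was 699 and 803 CPM without and 815 and 887 CPM with caffeine, a log2 difference of 0.18 ± 0.12 (adjusted p = 0.449). The caffeine and control libraries did not overlap in either line, and the gap was wider in SW620.

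DNAJC3, a BiP co-chaperone that also inhibits PERK, was at 46.9 and 47.1 CPM in the SW620 controls and 68.6 and 75.5 CPM with caffeine, and rose by 0.62 ± 0.12 on the log2 scale (adjusted p = 0.00319). In SW480 its caffeine libraries (50.8 and 51.1 CPM) lay just below the controls (59.2 and 53.8 CPM). HYOU1, a large HSP70-like nucleotide exchange factor of BiP, was at 71.1 and 71.1 CPM in the SW620 controls and 98.8 and 120.3 CPM with caffeine (log2 fold change 0.63 ± 0.14, adjusted p = 0.00553). Both of its SW480 caffeine libraries (257 and 322 CPM) also lay above the controls (224 and 203 CPM), with a log2 difference of 0.44 ± 0.13 that was not called (adjusted p = 0.0817).

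The SW480 caffeine libraries of HSP90B1 also lay above both controls, but the log2 difference of 0.17 ± 0.13 was not called (adjusted p = 0.511). In SW620 HSP90B1 was at 646 and 603 CPM in the controls and 907 and 805 CPM with caffeine (log2 fold change 0.46 ± 0.13, adjusted p = 0.0269). The call was lost without any 1 of the 4 SW620 libraries (adjusted p from 0.0632 to 0.268), while those of DNAJC3 and HYOU1 were lost without SW620 control replicate 1 or 2 (0.0633 to 0.0694), and that of HYOU1 also without SW620 caffeine replicate 2 (0.0967). The other 8 chaperone genes were not called in SW620 and ran from CRELD2 at -0.12 to MANF at 0.43 on the log2 scale, and MANF was called without the filter on low counts (adjusted p = 0.0215). They were the lectin chaperones CALR (0.11) and CANX (0.16), the HSP70-type HSPA13 (0.31), the BiP co-chaperones DNAJB9 (0.32) and DNAJB11 (0.03), the BiP complex partner SDF2L1 (-0.01), and the secreted stress proteins CRELD2 and MANF. CRELD2 had its larger difference in SW480, from 29.5 and 40.3 CPM to 39.6 and 63.2 CPM, where the groups overlapped (0.57 ± 0.19, adjusted p = 0.112).

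Of the disulfide bond enzymes, 3 of 7 rose in SW620 (median 0.48) and 1 of 7 in SW480 (median 0.15). ERO1A, the oxidase that recharges protein disulfide isomerase with disulfide bonds, had caffeine and control libraries that did not overlap in either line. It was at 101 and 104 CPM in the SW620 controls and 186 and 180.3 CPM with caffeine, a rise of 0.83 ± 0.12 on the log2 scale (adjusted p = 0.000219, 1.78-fold). In SW480 it was at 65.1 and 56.9 CPM without and 48.9 and 44.4 CPM with caffeine, a log2 difference of -0.39 ± 0.12 that was not called (adjusted p = 0.0976). The caffeine libraries lay above the controls in SW620 and below them in SW480.

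Its paralogue ERO1B showed the same order, at 4.5 and 6.16 CPM in the SW620 controls and 7.08 and 7.75 CPM with caffeine, and at 37.1 and 28.8 CPM in the SW480 controls and 24.2 and 25.2 CPM with caffeine. Neither difference was called (0.48 ± 0.20 and -0.41 ± 0.16, adjusted p = 0.117 and 0.161). P4HB, the classical protein disulfide isomerase, rose in SW620 from 561 and 549 CPM to 807 and 820.0 CPM (log2 fold change 0.55 ± 0.11, adjusted p = 0.00375). PDIA4, a further isomerase, rose from 140.4 and 139 CPM to 192 and 218 CPM (0.55 ± 0.12, adjusted p = 0.00721). In both the SW620 groups stood clear of each other, but the calls were lost without either SW620 control, where adjusted p ran from 0.0712 to 0.0965, and that of PDIA4 also without SW620 caffeine replicate 2 (0.0997). The SW480 caffeine libraries of P4HB and PDIA4 also lay above both controls. Their log2 differences there, 0.16 ± 0.11 and 0.28 ± 0.12, were not called (adjusted p = 0.482 and 0.226). PDIA3, the isomerase that works with CALR and CANX, and PDIA6 had log2 differences of 0.09 and 0.24 in SW620 and were not called.

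TXNDC5, a thioredoxin-domain isomerase, was the exception in SW480. Its counts were 29 and 48 in the SW480 controls and 76 and 236 with caffeine, that is 1.75 and 2.8 CPM and 4.89 and 10.0 CPM, a log2 fold change of 1.74 ± 0.31 (adjusted p = 0.00810). The highest value was that of SW480 caffeine replicate 2, the library with the low mitochondrial share, and without it the log2 fold change was 1.10 (adjusted p = 0.195). Leaving out the first SW480 control in its place gave 0.0535. In SW620 it stood at 3.24 and 3.21 CPM without and 3.04 and 3.88 CPM with caffeine, and the groups overlapped. The readthrough gene BLOC1S5-TXNDC5 had 0 counts in every library, so reads in the shared exons may be missing from both values.

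In the degradation pathway, 3 of 7 genes rose in SW620 (median 0.38) and 0 of 7 in SW480 (median 0.01), also at an unadjusted p under 0.05. HERPUD1, a membrane protein that organises the degradation complex, was at 302 and 315 CPM in the SW620 controls and 404 and 418 CPM with caffeine (log2 fold change 0.41 ± 0.11, adjusted p = 0.0216). SYVN1, the ubiquitin ligase HRD1 at the centre of the complex, was at 53.8 and 50.1 CPM and 71 and 75.3 CPM (0.49 ± 0.13, adjusted p = 0.0156). SEL1L, its partner, was at 71 and 80.2 CPM and 93.3 and 129.9 CPM (0.56 ± 0.15, adjusted p = 0.022). The SW620 groups did not overlap for these genes, and SEL1L had the widest spread between its caffeine libraries.

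In SW480 the same 3 genes had log2 differences of 0.23, 0.01 and 0.11 that were not called. The SW620 calls of HERPUD1 and SYVN1 were lost without any 1 of the 4 SW620 libraries (adjusted p from 0.0530 to 0.228), and that of SEL1L without SW620 control replicate 1, control replicate 2 or caffeine replicate 2 (0.0826 to 0.343). EDEM1, which hands misfolded glycoproteins to the complex, was at 61.5 and 59.1 CPM in the SW620 controls and 72.5 and 84.2 CPM with caffeine, and was not called (0.38 ± 0.13, adjusted p = 0.0563), although DESeq2 (0.0449) and limma-voom (0.0483) called it. The derlins, membrane proteins of the same complex, were not called in either line, with SW620 values of 0.15 (DERL1), 0.11 (DERL2) and -0.01 (DERL3). DERL3 had 3 to 10 counts per SW620 library, and its change there was not detectable at this depth.

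The sensors and factors were EIF2AK3, ERN1, ATF6, XBP1, CREB3L2 and WFS1, of which 3 of 6 rose in SW620 (median 0.36) and 0 of 6 in SW480 (median 0.03), where 1, XBP1, was higher at an unadjusted p under 0.05. EIF2AK3 was at 16.7 and 17.7 CPM in the SW620 controls and 23.2 and 27 CPM with caffeine (log2 fold change 0.54 ± 0.14, adjusted p = 0.0128), and at 38.8 and 38.3 CPM without and 37.1 and 36.7 CPM with caffeine in SW480 (-0.06 ± 0.13, adjusted p = 0.841). ERN1 was at 60.8 and 58.8 CPM and 75.8 and 92.3 CPM in SW620 (0.49 ± 0.14, adjusted p = 0.0294) and at 24 and 18.9 CPM and 21.9 and 24.6 CPM in SW480 (0.12 ± 0.15, adjusted p = 0.712). CREB3L2 is an ER-membrane transcription factor of secretory pathway genes. Its SW480 caffeine libraries lay above both controls, with a difference that was not called (0.30 ± 0.15, adjusted p = 0.293). In SW620 it was at 58 and 59.7 CPM and 78.6 and 95.5 CPM (0.57 ± 0.15, adjusted p = 0.0159). These genes were higher in both SW620 caffeine libraries than in both controls, but each call was lost without SW620 control replicate 1, control replicate 2 or caffeine replicate 2 (adjusted p from 0.102 to 0.283).

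ATF6 and XBP1, whose activation is by cleavage and by splicing, were not called in either line. ATF6 was at 53.8 and 53.9 CPM and 60.1 and 66.9 CPM in SW620 (0.24 ± 0.14, adjusted p = 0.296) and at 55.3 and 48.2 CPM and 54 and 41.6 CPM in SW480 (-0.12 ± 0.14, adjusted p = 0.70). XBP1 was at 239.5 and 256 CPM and 243 and 242 CPM in SW620 (-0.03 ± 0.12, adjusted p = 0.912) and at 76.6 and 85.5 CPM and 94.4 and 111 CPM in SW480 (0.34 ± 0.12, adjusted p = 0.133). The XBP1 groups overlapped in SW620 and stood apart in SW480, with the caffeine libraries higher. Counts per gene do not separate spliced from unspliced XBP1 mRNA. WFS1, an ER membrane protein that restrains ATF6, had log2 differences of 0.19 in SW620 and -0.08 in SW480.

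At the entry and exit of the ER, SEC24D was the gene with the smallest adjusted p of all 36. It encodes a cargo-binding subunit of the COPII coat and was at 22.7 and 24.8 CPM in the SW620 controls and 51.9 and 58.7 CPM with caffeine, a log2 fold change of 1.22 ± 0.14 (adjusted p = 2.05e-05, 2.33-fold). In SW480 it was at 24.9 and 23.6 CPM without and 26.4 and 22.1 CPM with caffeine (-0.01 ± 0.14, adjusted p = 0.997). The untreated libraries of both lines and the SW480 caffeine libraries thus shared a narrow range, above which the SW620 caffeine libraries lay apart. The channel subunits SEC61A1 and SEC61B and the translocon-associated SSR1 had log2 differences of 0.11, -0.01 and 0.24 in SW620 and were not called.

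The 13 called genes that have a promoter window included 4 with ERSE or ERSE-II (30.8%), namely HSPA5, HSP90B1, HYOU1 and HERPUD1, and the 19 genes not called included 6 (31.6%). With the forward strand alone the counts were 3 of 13 (23.1%) and 2 of 19 (10.5%).

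The difference of the caffeine effects (SW620 minus SW480) was tested in the same fit. It uses the same 8 libraries as both effects and is therefore not independent of them. The test called 5 of the 36 genes higher and 1 lower, against 4.24% and 2.47% of all tested genes, and the median was 0.27 over the 36 and -0.02 over all tested genes. The difference was 1.22 ± 0.17 for ERO1A (adjusted p = 0.000419) and 1.23 ± 0.20 for SEC24D (adjusted p = 0.00127), and these calls held without any 1 library. It was 0.77 ± 0.18 for DNAJC3 (adjusted p = 0.0149) and 0.71 ± 0.17 for HSPA5 (adjusted p = 0.0215), both lost without SW620 control replicate 1, control replicate 2 or caffeine replicate 2, and for HSPA5 also without caffeine replicate 1 (0.0699 to 0.145 over both genes). It was 0.89 ± 0.25 for ERO1B (adjusted p = 0.0426) and -1.63 ± 0.45 for TXNDC5 (adjusted p = 0.0379), each of which was lost without any of 6 of the 8 libraries, in turn, and in limma-voom. Leaving out a library moved the count of genes called higher to 8 without SW480 control replicate 2 and to 2 or 3 without any 1 SW620 library.

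For the sensors the difference was not called. It was 0.61 ± 0.19 for EIF2AK3 (adjusted p = 0.0621), which DESeq2 called (0.0416), as did the fit without SW480 control replicate 2 (0.0432). It was 0.37 ± 0.21 for ERN1 (0.314), 0.36 ± 0.20 for ATF6 (0.315) and -0.37 ± 0.17 for XBP1 (0.204). The 10 genes that rose in SW620 and had no called difference between the lines, among them HYOU1 (0.19 ± 0.19), HSP90B1 (0.29 ± 0.18) and P4HB (0.40 ± 0.16), are not shown to be particular to SW620.

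Related ER genes were read from lists chosen, like the 36, with earlier results of these data known. Over 8 such lists 15 of 120 tested genes rose and 7 fell in SW620, with a median of 0.07, against 8.10% and 6.25% of all tested genes. In SW480 4 rose and 2 fell, with a median of 0.02, against 1.67% and 1.93%. The list of further COPII and retrieval genes had 5 of 18 higher and 0 lower in SW620 (median 0.24) and 1 higher, PREB, in SW480 (median -0.16). Its highest were KDELR3, a receptor that returns escaped chaperones to the ER (1.03 ± 0.18, adjusted p = 0.00114), SEC24A, a paralogue of SEC24D (0.84 ± 0.15, adjusted p = 0.00126), and the cargo receptor LMAN1 (0.59 ± 0.13, adjusted p = 0.00681). SEC31A (0.47) and SEC23B (0.40), subunits of the coat, also rose. The calls of SEC31A and SEC23B were lost without any 1 of the 4 SW620 libraries (adjusted p from 0.0632 to 0.308), and that of SEC23B also without the filter on low counts (0.0516). The call of LMAN1 was lost without SW620 control replicate 1, control replicate 2 or caffeine replicate 2 (0.0821 to 0.0989). The SW480 log2 difference of PREB was 0.51 (adjusted p = 0.0301), a call not made in a separate fit of the line (0.0835). With a library left out it ran from 0.37 to 0.65. KDELR3 went from 8.15 and 8.57 CPM to 18 and 16.3 CPM in SW620 and from 29.5 and 33.6 CPM to 26.4 and 17.9 CPM in SW480, so the groups of each line stood apart in opposite order.

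The list of the PERK and ATF4 arm held 12 genes, among them ATF4 itself and PPP1R15B. Of these, 3 rose and 0 fell in SW480 (median 0.51), against 1.67% and 1.93% of all tested genes. In SW620 2 rose and 3 fell (median -0.09), against 8.10% and 6.25%. CHAC1, a glutathione-degrading enzyme, rose in SW480 (1.38 ± 0.17, adjusted p = 0.000416) from 5.2 and 7.3 CPM to 16 and 16.6 CPM and fell in SW620 (-0.78 ± 0.14, adjusted p = 0.00138) from 100.1 and 105 CPM to 55.1 and 64.4 CPM. SESN2, an mTORC1 inhibitor, and TRIB3, a pseudokinase, were the other genes that rose in SW480 (1.01 and 0.61), the call of TRIB3 being lost without SW480 control replicate 1 or caffeine replicate 2 (adjusted p = 0.125 and 0.209). In SW620 PPP1R15A, the eIF2α phosphatase subunit GADD34, rose by 1.03 ± 0.13 (adjusted p = 8.02e-05), and the transcription factor DDIT3 (CHOP) by 0.49 ± 0.16 (adjusted p = 0.0448), a call lost without SW620 control replicate 1, control replicate 2 or caffeine replicate 1 (0.209 to 0.333) and in limma-voom (0.0534).

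NUPR1, a small stress-induced chromatin protein, fell in SW620 from 11 and 11.2 CPM to 2.08 and 1.96 CPM (-2.45 ± 0.23, adjusted p = 3.41e-06), and the secreted glycoprotein STC2 fell by 0.53 (adjusted p = 0.00534) on the log2 scale, a call lost without SW620 control replicate 1, control replicate 2 or caffeine replicate 1 (0.0655 to 0.0839). ATF4 itself was at 449 and 538 CPM without and 652 and 689 CPM with caffeine in SW480 (0.44 ± 0.13, adjusted p = 0.0659) and at 1358 and 1316 CPM and 1152 and 1110 CPM in SW620. The SW480 difference of ATF4 was called by DESeq2 (0.0236), by limma-voom (0.0487), without the filter on low counts (0.0253) and without SW480 control replicate 2 (0.02). The ATF4 libraries of each line stood apart in opposite order, and the difference of the effects was -0.68 ± 0.18 (adjusted p = 0.0303), a call lost without 6 of the 8 libraries in turn (adjusted p up to 0.169).

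Heat shock genes outside the ER, mostly cytosolic but with the mitochondrial HSPD1 and HSPE1, had 0 of 16 higher and 4 lower in SW620 (median -0.15). Of all tested genes 8.10% were called higher and 6.25% lower. In SW480 0 were called (median -0.03). There 0 were higher and 2 lower at an unadjusted p under 0.05, against 9.91% and 9.48% of all tested genes. Those that fell were DNAJA1 (-0.66 ± 0.12, adjusted p = 0.00118), HSPA1B (-0.89 ± 0.18, adjusted p = 0.00338), HSPA8 (-0.63 ± 0.13, adjusted p = 0.00383) and HSPE1 (-0.54 ± 0.17, adjusted p = 0.0428). The call of HSPE1 was lost without 5 of the 8 libraries in turn, among them SW620 caffeine replicate 2, where it was -0.36 (adjusted p = 0.348). The call of HSPA8 was lost without SW620 control replicate 2 or caffeine replicate 2 (0.0989 and 0.0704), and that of HSPA1B without SW620 control replicate 1 (0.0837). HSPA1B has a near-identical copy, HSPA1A, so its share of the reads is uncertain. The genes of the remaining lists called in SW620 are given beside the 8.10% higher and 6.25% lower of all tested genes. They were 1 higher and 2 lower of 14 further disulfide enzymes, 2 and 0 of 17 further folding genes, and 2 and 1 of 20 further degradation genes. For the rest they were 2 and 1 of 22 further translocon genes, 0 and 0 of 11 further sensors and factors, and 1 and 0 of 6 ER-phagy receptors and partners. GPX8, an ER peroxidase, fell by 2.04 on the log2 scale in SW620 (SE 0.24, adjusted p = 2.48e-05), and the oxidase QSOX1 rose by 0.58, a call lost without any 1 of the 4 SW620 libraries (0.0558 to 0.137).

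**Figure D4:**
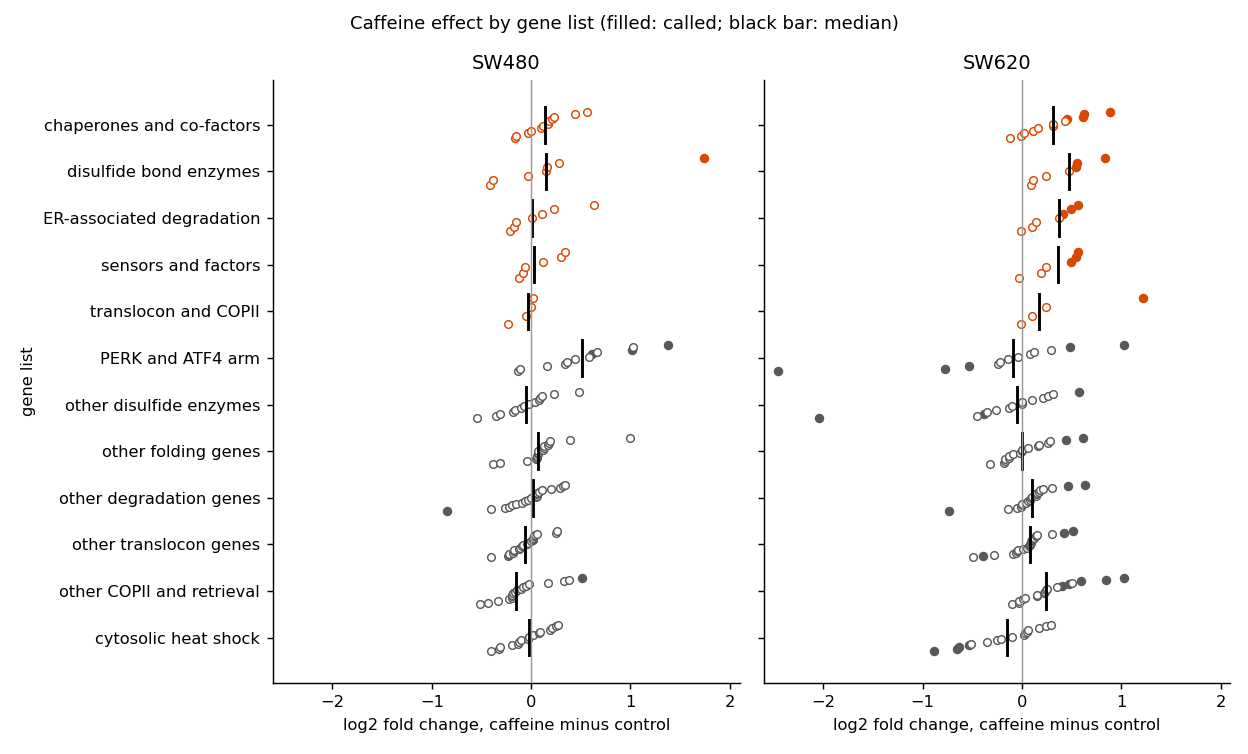
Log2 fold change of caffeine over control in SW480 (left) and SW620 (right) for the genes of each list, with 1 point per gene, filled points for an adjusted p under 0.05 and a black bar at the list's median. Orange points are the 36 genes by role and grey points the related lists: in SW620 the medians of the orange lists run from 0.17 to 0.48, and that of the PERK and ATF4 list is -0.09. The list labelled cytosolic heat shock also holds the mitochondrial HSPD1 and HSPE1.

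Without caffeine the lines already differed in most of the genes. Between SW620 and SW480 controls 9 of the 36 were called higher in SW620 and 16 lower, while 33.0% of all tested genes were called higher and 32.6% lower, so that the share of called genes was near that of all genes. The median was -0.26 over the 36 and 0.03 over all tested genes. Of the 25 calls, 19 held without any 1 library, and those of CANX, DERL3, DNAJB11, MANF, SDF2L1 and SEC61A1 did not.

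The genes higher in SW620 included XBP1 and ERN1, the factor and the sensor of the IRE1 arm. XBP1 was at 76.6 and 85.5 CPM in the SW480 controls and 239.5 and 256 CPM in the SW620 controls (1.61 ± 0.12, adjusted p = 5.33e-09), and ERN1 was 2.79-fold higher in SW620 (1.48 ± 0.15, adjusted p = 2.03e-07). HERPUD1 had the highest difference, at 74 and 79.8 CPM in SW480 and 302 and 315 CPM in SW620 (2.0 ± 0.12, adjusted p = 1.70e-10, 4.01-fold). ERO1A (0.75), CREB3L2 (0.72), P4HB (0.70), EDEM1 (0.55), SSR1 (0.47) and DNAJB11 (0.41) were the others, on the log2 scale.

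The genes lower in SW620 took in 7 of the 12 chaperones, while 1, DNAJB11, was higher. Of all tested genes 32.6% were called lower and 33.0% higher. The calls of CANX, MANF, SDF2L1 and DNAJB11 were among those that did not hold without any 1 library. ERO1B was at 37.1 and 28.8 CPM in SW480 and 4.5 and 6.16 CPM in SW620 (-2.63 ± 0.18, adjusted p = 1.26e-09, 6.17-fold higher in SW480). PDIA6, an isomerase that acts with BiP, was at 319 and 314 CPM and 67 and 68.5 CPM (-2.22 ± 0.12, adjusted p = 4.48e-11), and 25.2% of its exon bases are shared with ATP6V1C2 on the other strand. HYOU1 was 3.01-fold higher in SW480 (-1.59 ± 0.14, adjusted p = 2.65e-08), and EIF2AK3 2.23-fold (-1.16 ± 0.13, adjusted p = 9.88e-07). HSPA5 was 1.39-fold higher in SW480 (-0.48 ± 0.12, adjusted p = 0.00290).

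The other genes lower in SW620 were DERL2 (-1.06), WFS1 (-0.95), CRELD2 (-0.80), CALR (-0.74), PDIA4 (-0.68), SYVN1 (-0.67), SDF2L1 (-0.64), CANX (-0.46), MANF (-0.42) and SEC61A1 (-0.30). DERL3 was called lower as well, with 14 and 15 counts in the SW480 controls and 3 and 10 in the SW620 controls, a call that DESeq2 did not make (adjusted p = 0.083). The 11 genes not called included ATF6 (0.06 ± 0.14, adjusted p = 0.737), SEC24D (-0.03 ± 0.14, adjusted p = 0.843), and PDIA3 (0.0541), which DESeq2 (0.0227) and limma-voom (0.0385) called lower in SW620.

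**Figure D5:**
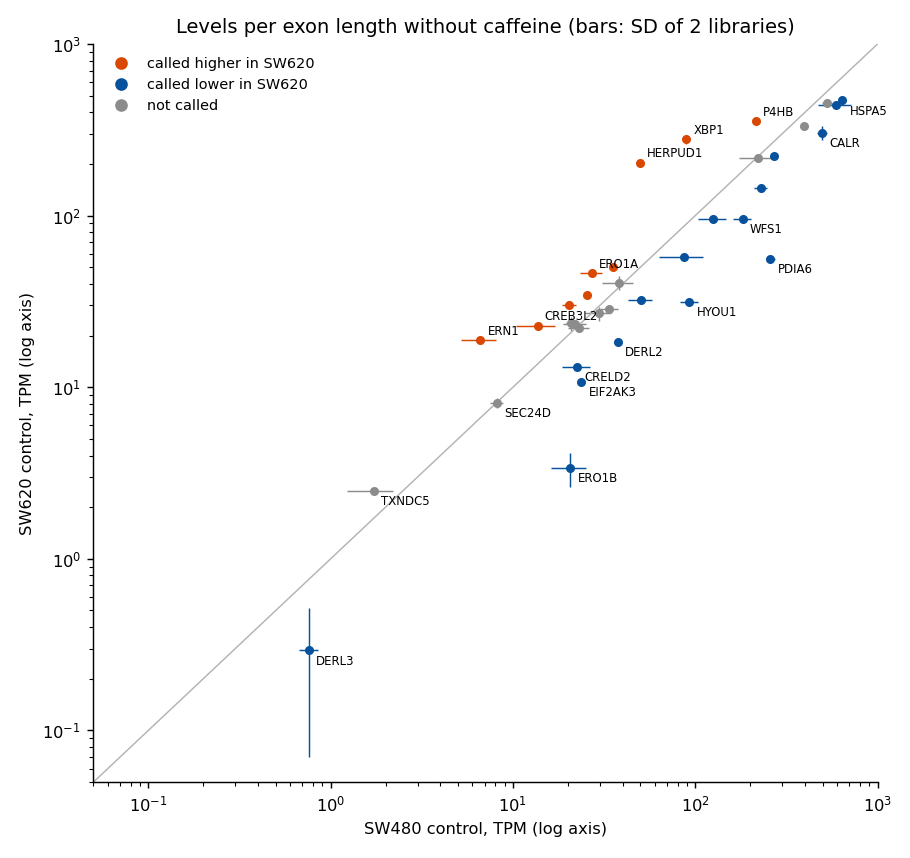
Mean level of each of the 36 genes in the SW620 controls against the SW480 controls, in TPM on log axes, with bars of the SD of 2 libraries and a diagonal of equal level. The 9 genes called higher in SW620 (orange) include HERPUD1, XBP1 and ERN1 above the diagonal, and the 16 called lower (blue) include PDIA6, HYOU1 and ERO1B below it.

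Of the genes lower in the SW620 than in the SW480 controls, HSPA5, HYOU1, PDIA4, SYVN1 and EIF2AK3 rose there with caffeine. HSPA5, at 1014 and 987 CPM in SW620 with caffeine, then lay above all 4 SW480 libraries. HYOU1 (98.8 and 120.3 CPM), SYVN1 (71 and 75.3 CPM) and EIF2AK3 (23.2 and 27 CPM) remained below all 4, and PDIA4 (192 and 218 CPM) overlapped the SW480 controls (204 and 245 CPM). ERO1A, HERPUD1, ERN1, CREB3L2 and P4HB were higher in the SW620 controls and rose further there with caffeine. Both comparisons use the SW620 control libraries, so their values are not independent.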

How the data were processed

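Poly-A RNA of 8 libraries was counted per Ensembl gene. The deposited values are raw counts, whole numbers of reads per gene; the submitters' processing notes name Trim Galore, STAR 2.7.3a, featureCounts 2.0.5 and hg38, while the annotation release and the strand setting are not given in the sources used here. Per the labels, libraries were made with a directional kit and read as 75-base single-end reads. The 12 assignment totals in each file were left out, and ambiguous reads made 7.36% to 8.37% of the reads. Of 62649 gene IDs, 62625 were matched to symbols.

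Genes passing filterByExpr (17671) were tested with the robust quasi-likelihood F test of edgeR 4.0.16 (R 4.3.3) after TMM scaling, in a single fit of the 8 libraries that gave each of the 4 groups its own mean; p-values were adjusted by Benjamini-Hochberg over those genes and called under 0.05. The biological coefficient of variation was 10.5%. With 2 libraries per group the p-values measure the spread between these libraries. Replicate numbers did not pair the libraries (correlations of same-numbered deviations -0.189 to 0.0265), so no block was used. CPM values are TMM-scaled; TPM values used exon lengths of GENCODE 29, which may not be the authors' annotation. Promoter windows are from RefSeq on GRCh38.p14. The script was tested on simulated data.

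The members and lists were chosen with earlier results of these data known. The naming rule took the members called in a comparison, HSPA5, XBP1, ATF6, ERN1 and EIF2AK3 always, and up to 4 called genes of each other list by adjusted p; DDIT3, SEC23B, ATF4, single marker genes of other cells, and members called only in an alternative were named after their values were seen. Alternatives were DESeq2 1.42.0 size factors and Wald test, limma 3.58.1 voom, no filter, a replicate block, a separate fit per line, no mitochondrial genes, each library left out, and the forward promoter strand alone. Protein sequences were not used here.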

Additional observations from a re-analysis of the deposited data

Results flagged for a closer look

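The following genes are listed because the test of the difference between the caffeine effects (SW620 minus SW480, edgeR's quasi-likelihood test) was called, on the log2 scale. Among the folding genes the difference was 1.23 for SEC24D, 1.22 for ERO1A, 0.892 for ERO1B, 0.766 for DNAJC3 and 0.709 for HSPA5, and it was -1.63 for TXNDC5. Of these calls only those of SEC24D and ERO1A held without any 1 library, and limma-voom did not call ERO1B (adjusted p = 0.0617) or TXNDC5 (0.0742). HSPA5, DNAJC3, ERO1A and SEC24D were called in SW620 alone, TXNDC5 in SW480 alone, and ERO1B in neither line. Among COPII and retrieval genes it was 1.55 for KDELR3, 1.07 for SEC24A and 0.777 for LMAN1, the call of LMAN1 being lost without 5 of the 8 libraries in turn (adjusted p up to 0.106) and that of SEC24A without SW620 control replicate 1 (0.0596). In the PERK and ATF4 arm it was 0.869 for PPP1R15A, -2.16 for CHAC1, -1.23 for SESN2, -0.889 for STC2 and -0.683 for ATF4, the call of PPP1R15A being lost without SW620 control replicate 2 (0.0909) and that of ATF4 without 6 of the 8 libraries in turn, and CHAC1 was called in both lines in opposite directions. Of the remaining lists it was 1.00 for FKBP14, an ER prolyl isomerase, 1.06 for FAM8A1, a degradation complex cofactor, 1.27 for CALCOCO1, an ER-phagy receptor, and -1.86 for GPX8. The call of FAM8A1 was lost without SW480 caffeine replicate 2, SW620 control replicate 2 or SW620 caffeine replicate 2 (0.0504 to 0.0611), and that of FKBP14 without SW620 control replicate 1 (0.0638).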

How the results depend on the processing

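With 2 libraries per group, leaving out a library left 1 in its group, so a lost call does not tell the smaller group from the weight of that library. In SW620 the log2 fold change of P4HB was 0.55 in the main fit and 0.57 or 0.54 without control replicate 1 or 2. That of SEL1L was 0.56 and moved to 0.30 without caffeine replicate 2. DERL3 and TXNDC5 rest on few counts (3 to 30 and 29 to 236 per library). In SW480, the members called higher ranged from 0 to 3, those lower from 0 to 2 and all genes called from 50 to 1367 when a library was left out, and without the filter on low counts 3 members were higher and 1073 genes called in all. In SW620, the members called higher ranged from 3 to 16 and all genes called from 787 to 3225 when a library was left out. A separate fit of the line called 20 members higher and 4617 genes in all. The members called there but not in the main fit were DNAJB9, EDEM1, ERO1B, HSPA13, MANF and SSR1. For the difference of the effects, the members called higher ranged from 2 to 8, those lower from 0 to 2 and all genes called from 421 to 2156; 2 members were lower without the filter and 0 in limma-voom. Signs reversed for 4 values near 0 that were not called: over the fits with a library left out, ERN1 in SW480 ran from -0.0573 (without SW480 control replicate 2) to 0.3065 and ATF6 in SW480 from -0.3135 to 0.0612 (without SW480 caffeine replicate 2), while XBP1 in SW620 ran from -0.0767 to 0.0187 (without SW620 control replicate 2) and ATF6 between the controls from -0.0612 (without SW480 control replicate 2) to 0.1604. With a replicate block the numbers of members called stayed at 1 in SW480, 14 in SW620 and 5 higher and 1 lower for the difference, the SW620 calls of DDIT3 (adjusted p = 0.0562) and SEC23B (0.065) ended, and of all genes 590 were called in SW480 and 2249 in SW620. On the forward strand alone 5 members held ERSE or ERSE-II, since fewer sequences were searched. The causes of the other shifts were not tested.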
